A study of Rattus norvegicus with 47 samples.

Results

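Antigen presentation was followed through 6 genes in rat brain after injury: RT1-Ba, Cd74, B2m, Tap1, Psmb8 and Psmb9. Their members were all 13 probe sets, of 8799 on the array, whose platform annotation gives 1 of these 6 symbols alone, among 4737 genes named on the array. A further probe set (1), which lists B2m beside other genes, was left out because its signal cannot be given to a single gene. RT1-Ba had 3 probe sets, Cd74 had 4, Tap1 and Psmb9 had 2 each, and B2m and Psmb8 had 1 each.

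Total RNA of 47 tissue samples was hybridised, 1 array per sample. The groups were ipsilateral hippocampus at 4 h after injury (7 arrays), contralateral hippocampus at 4 h (9), ipsilateral cortex at 24 h (8), contralateral cortex at 24 h (8), ipsilateral cortex at 4 h (7) and contralateral cortex at 4 h (8). The labels write "HC", taken here to mean hippocampus. The sources used here do not give the strain, the age or the kind of injury, nor whether any animal was sham-operated, so the side comparisons cannot be read as injured against uninjured tissue. The labels do not tie arrays to animals, and p-values therefore reflect only how these samples vary, in part perhaps for technical reasons.

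MHC class I molecules show peptides from inside the cell to CD8 T cells. B2m is their light chain, Tap1 is 1 subunit of the transporter that carries peptides into the endoplasmic reticulum, and Psmb8 and Psmb9 are catalytic subunits that replace constitutive ones in the immunoproteasome. MHC class II molecules show peptides from endosomes to CD4 T cells; RT1-Ba encodes an alpha chain of a rat class II molecule, and Cd74 is the invariant chain that guards the class II groove until it reaches the endosome. Interferon-gamma is known to induce all of these genes, and in brain tissue class II genes are known mainly from activated microglia and from infiltrating or perivascular immune cells.

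The promoter windows are shown because 4 of the 6 genes sit in the MHC region of chromosome 20 and because class I genes are known targets of interferon-regulated factors. In RefSeq's GRCr8 assembly, RT1-Ba spans chr20:4577057-4581650, Psmb8 chr20:4654068-4657049, Tap1 chr20:4658171-4668543 and Psmb9 chr20:4668952-4674421. B2m lies at chr3:129549236-129555354 and Cd74 at chr18:56527071-56536406. Each window below is 300 bases, 5′ to 3′ along the gene's strand, the last 50 of them beginning at a start site set by RefSeq's table. That site is the outer 5′ end of the span given above for RT1-Ba and Tap1, and lies inside the span by 94 bases for B2m (at 129549330), 18 for Psmb8 (at 4657031) and 48 for Psmb9 (at 4669000). For Cd74 it lies furthest inside, by 135 bases (at 56527206). Capitals mark matches to 3 motifs searched on both strands. These were an interferon-stimulated response element (ISRE) core, GAAANNGAAA, present in 3.92% of all 33469 promoter windows, a STAT site, TTCNNNGAA, in 8.87%, and the Y box of MHC promoters, GATTGG, in 14.8%.
RT1-Ba (chr20:4576807-4577106, plus strand): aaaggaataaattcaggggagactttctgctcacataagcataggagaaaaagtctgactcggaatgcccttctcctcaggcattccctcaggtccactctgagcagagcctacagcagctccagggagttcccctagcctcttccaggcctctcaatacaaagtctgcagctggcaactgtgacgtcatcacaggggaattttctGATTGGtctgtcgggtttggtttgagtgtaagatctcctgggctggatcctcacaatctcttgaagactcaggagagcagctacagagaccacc
B2m (chr3:129549080-129549379, plus strand): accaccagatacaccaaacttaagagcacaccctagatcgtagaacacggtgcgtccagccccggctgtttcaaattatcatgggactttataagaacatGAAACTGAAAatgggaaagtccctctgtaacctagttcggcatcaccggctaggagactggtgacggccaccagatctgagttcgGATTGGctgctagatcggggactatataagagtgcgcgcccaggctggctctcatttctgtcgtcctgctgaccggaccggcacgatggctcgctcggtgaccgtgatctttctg
Tap1 (chr20:4668494-4668793, minus strand): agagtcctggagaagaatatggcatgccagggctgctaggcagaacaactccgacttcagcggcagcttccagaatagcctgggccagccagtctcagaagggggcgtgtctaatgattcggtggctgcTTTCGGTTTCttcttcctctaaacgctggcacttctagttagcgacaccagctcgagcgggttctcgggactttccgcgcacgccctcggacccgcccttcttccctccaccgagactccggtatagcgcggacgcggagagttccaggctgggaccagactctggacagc
Psmb8 (chr20:4656982-4657281, minus strand): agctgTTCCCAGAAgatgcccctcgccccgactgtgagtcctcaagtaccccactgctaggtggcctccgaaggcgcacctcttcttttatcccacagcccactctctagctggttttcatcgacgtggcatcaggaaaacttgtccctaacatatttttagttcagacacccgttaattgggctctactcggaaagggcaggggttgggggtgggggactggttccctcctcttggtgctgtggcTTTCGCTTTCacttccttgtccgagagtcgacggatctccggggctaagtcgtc
Psmb9 (chr20:4668750-4669049, plus strand): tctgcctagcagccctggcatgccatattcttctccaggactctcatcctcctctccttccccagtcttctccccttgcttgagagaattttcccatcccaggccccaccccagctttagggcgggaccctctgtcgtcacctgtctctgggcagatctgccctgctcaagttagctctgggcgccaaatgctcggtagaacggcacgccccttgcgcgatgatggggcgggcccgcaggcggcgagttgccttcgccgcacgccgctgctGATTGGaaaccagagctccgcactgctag
Counted from the start site of each window to the first printed base of a match, the ISRE core was found 150 bases upstream for B2m, and on the opposite strand 121 bases upstream for Tap1 and 4 bases upstream for Psmb8. The Y box was found 44 bases upstream for RT1-Ba, 65 bases upstream for B2m and 21 bases downstream for Psmb9, and the STAT site 245 bases upstream for Psmb8. The B2m Y box and the Psmb8 ISRE core thus lie inside the outer spans of their genes. Tap1 and Psmb9 are transcribed away from each other, with the start sites of their windows 457 bases and the 5′ ends of their spans 409 bases apart, and their windows share 44 bases. A match describes the letters of a window and does not show a binding site. No motif was matched in the Cd74 window (chr18:56526956-56527255), which is not printed. As its start site lies 135 bases inside the span, this window reaches less far upstream of the span than the others.

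The deposited values are a linear signal per probe set, already scaled between arrays. Signals under 185.8, the 25th percentile of all values, were raised to that floor before log2 was taken, and probe sets above it on at least 7 arrays were tested, which left 7503, among them 11 of these 13. Only 4 of the 13 were above the floor on all 47 arrays (B2m, Psmb8, and the leading ones of RT1-Ba and Tap1). In bulk tissue, fewer cells of a type and less RNA per cell cannot be told apart. All 9 neuron, astrocyte and myelin markers tested were above the floor on all 47 arrays, and the mean of 2 hippocampal markers, Neurod1 and Grik4, was 11.12 to 11.63 log2 signal in hippocampus and 9.82 to 10.47 in cortex, with no overlap. The 10th percentile of an array's signal was lower in ipsilateral hippocampus (median 41.2, 36.4 to 56.7) than in contralateral hippocampus (median 58.8, 45.8 to 98.9), which bears on the hippocampal side comparison. Its medians in ipsilateral cortex were 58.1 at 4 h (41.1 to 69.1) and 49 at 24 h. In contralateral cortex they were 56.8 at 4 h and 50.6 at 24 h. These gaps bear on the ipsilateral region comparison and on those between times. Each difference below is in log2 signal, from limma with Benjamini-Hochberg adjustment over 7503 probe sets, and passed when its adjusted p was under 0.05. Levels are not compared between genes, since probe sets differ in brightness.

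**Figure D1:**
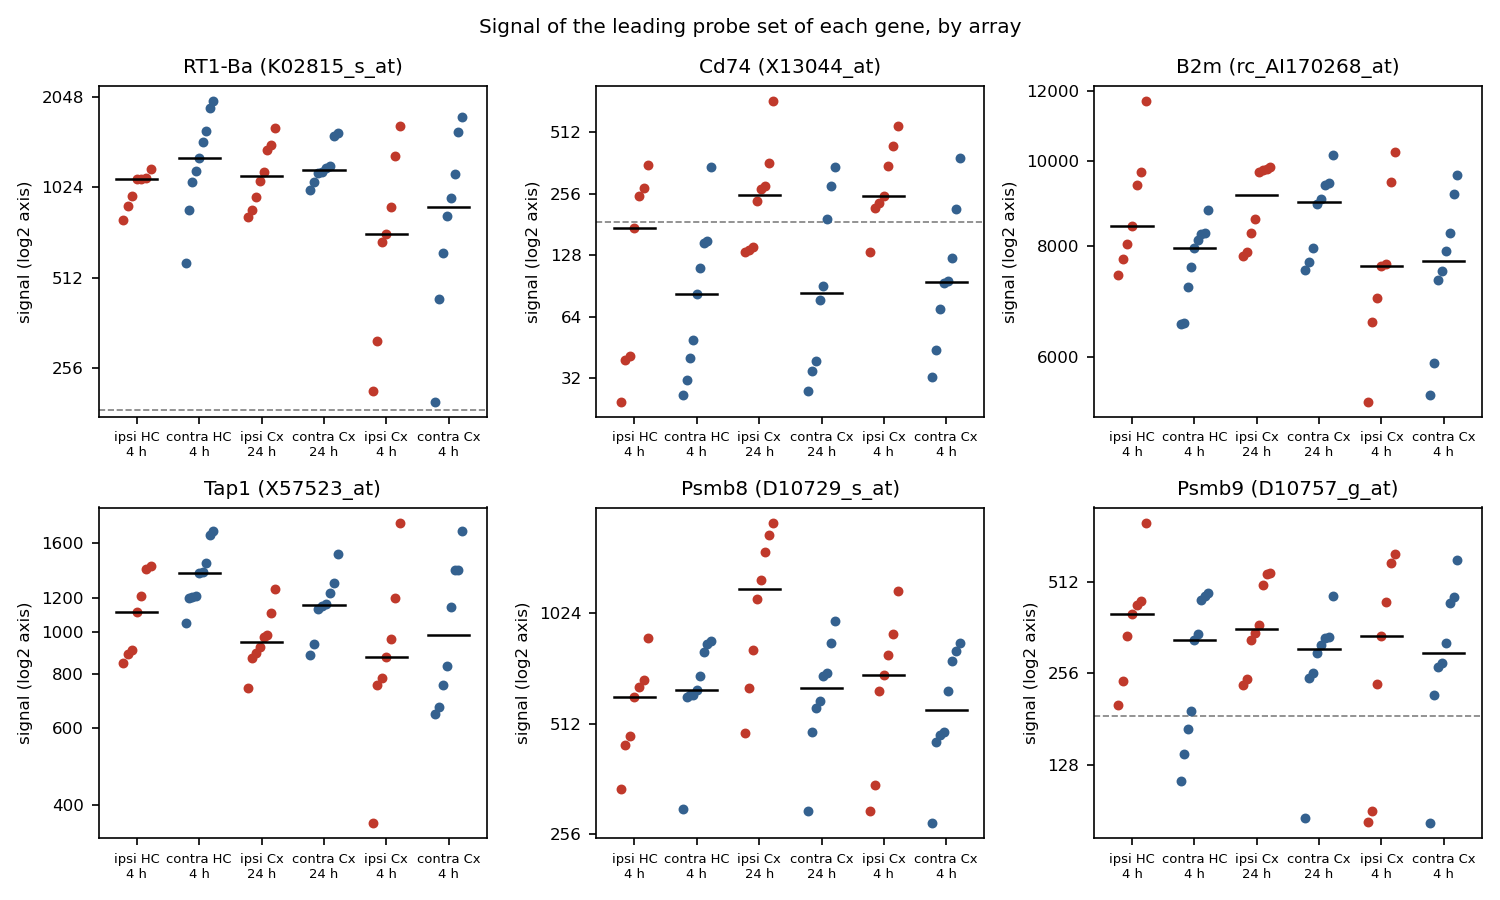
Signal of the leading probe set of each of the 6 genes on each of 47 arrays (vertical log2 axis) by group, where HC is hippocampus and Cx cortex, red is ipsilateral, blue is contralateral, the bar is the group median and the dashed line the floor of 185.8. Psmb8 in ipsilateral cortex at 24 h reached 1810, and 5 of its 8 arrays lay over the highest contralateral array (973); in the other panels the groups overlap widely.

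Among the class II genes, RT1-Ba (K02815_s_at, its probe set with the highest mean) was present on every array but varied most in cortex at 4 h. RT1-Ba signals in hippocampus at 4 h were 797, 1090 and 1180 (lowest, median, highest) on the ipsilateral side and 575, 1280 and 1980 on the contralateral side. RT1-Ba in cortex at 24 h gave 818, 1110 and 1620 ipsilaterally and 1000, 1170 and 1560 contralaterally, and in cortex at 4 h 215, 718 and 1640 ipsilaterally and 198, 883 and 1750 contralaterally. The SD in cortex at 4 h was 1.05 (ipsilateral, n = 7) and 1.03 (contralateral, n = 8) log2 units, while the other 4 groups had SDs between 0.20 and 0.57. The sides overlapped in each of the 3 pairs of groups. The side differences were −0.30 (SE 0.32) in hippocampus, −0.11 (SE 0.32) in cortex at 24 h and −0.21 (SE 0.33) in cortex at 4 h, and none passed.

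A second RT1-Ba probe set, M22366_at, carried 2 of the 3 differences that passed among the 6 genes. Its signals in ipsilateral cortex were 603, 780 and 1030 at 24 h and 95.3, 253 and 727 at 4 h. RT1-Ba by this probe set rose to 9.61 ± 0.28 log2 signal at 24 h (SD, n = 8), against 8.37 ± 0.81 at 4 h (n = 7), a difference of 1.23 (SE 0.34, 2.35-fold, limma adjusted p = 0.00724). All 8 arrays at 24 h were above the 4 h median and 4 of 8 above the highest 4 h array. The difference passed on leaving out any of the 15 arrays (adjusted p 0.00268 to 0.024). In contralateral cortex the same probe set gave 274, 639 and 914 at 24 h and 123, 386 and 909 at 4 h, a difference of 0.69 (SE 0.33, limma adjusted p = 0.137) that did not pass. The ipsilateral and contralateral time differences differed by 0.54 (SE 0.47, limma adjusted p = 0.968), so a larger change on the ipsilateral side is not shown.

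The same RT1-Ba probe set was also higher in contralateral hippocampus than in contralateral cortex at 4 h. Its signals were 310, 848 and 1450 in hippocampus and 123, 386 and 909 in cortex, and the means were 9.55 ± 0.68 (SD, n = 9) and 8.53 ± 0.84 (n = 8). The difference of 1.02 (SE 0.32, 2.03-fold, limma adjusted p = 0.0111) passed on leaving out any of 17 arrays (adjusted p 0.00274 to 0.0355), and the median of all probe sets in this comparison was 0.11. On the ipsilateral side, signals were 164, 504 and 931 in hippocampus and 95.3, 253 and 727 in cortex, a difference of 0.30 (SE 0.35, limma adjusted p = 0.584). Between the sides of hippocampus M22366_at was lower ipsilaterally, by −0.88 (SE 0.33, 95% interval −1.55 to −0.22), with 6 of 7 ipsilateral arrays not above the contralateral median and an adjusted p of 0.0596 in limma that did not pass. The 3 probe sets of RT1-Ba did not track each other closely: over 47 arrays, which share depth and scaling, r was 0.39, 0.37 and 0.27 for the 3 pairs. For the 24 h against 4 h difference in ipsilateral cortex, K02815_s_at gave 0.75 (SE 0.33, limma adjusted p = 0.105) and X07551cds_s_at gave 0.01 (SE 0.24, limma adjusted p = 0.99). X07551cds_s_at was dim, above the floor on 5 of 8 arrays in that group at 24 h and 5 of 7 at 4 h.

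**Figure D2:**
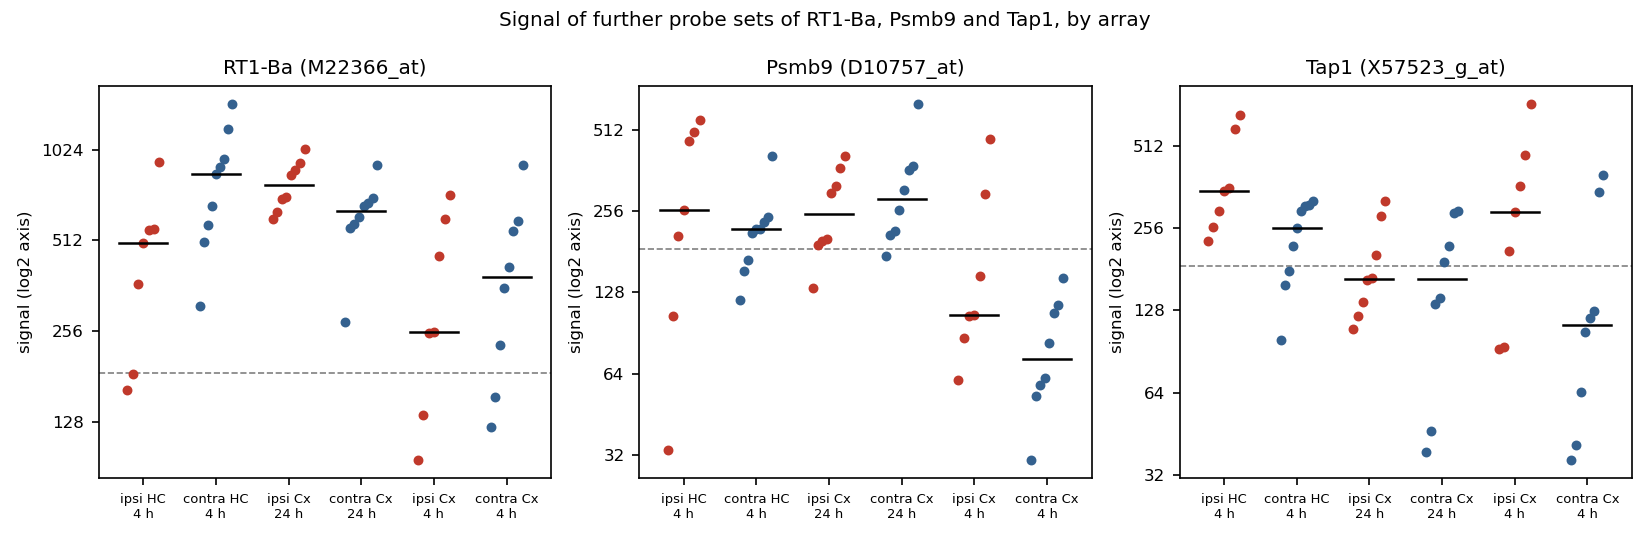
Signal of a second probe set of RT1-Ba, Psmb9 and Tap1 on each array (vertical log2 axis) by group, where HC is hippocampus and Cx cortex, red is ipsilateral, blue is contralateral, the bar is the group median and the dashed line the floor of 185.8. RT1-Ba M22366_at has a median of 780 in ipsilateral cortex at 24 h and 253 at 4 h, and Psmb9 D10757_at has all 8 contralateral cortex arrays at 4 h under the floor.

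Cd74, the class II chaperone, was near the limit of the array in all groups, so only part of it was measured. Both X14254cds probe sets were not tested: X14254cds_at was above the floor on 0 arrays and X14254cds_g_at on 2, arrays 38 and 24.
Cd74 by its leading probe set, X13044_at, read 134, 250 and 548 in ipsilateral cortex at 4 h, against 32.5, 94.9 and 382 in contralateral cortex. Its signals in cortex at 24 h were 134, 252 and 728 ipsilaterally and 27.9, 84.0 and 347 contralaterally, and in hippocampus 24.6, 175 and 353 ipsilaterally and 26.5, 82.6 and 346 contralaterally. The probe set was above the floor on 6 of 7 ipsilateral and 2 of 8 contralateral arrays of cortex at 4 h, on 5 of 8 and 3 of 8 at 24 h, and on 3 of 7 and 1 of 9 in hippocampus. The ipsilateral median was thus higher in all 3 pairs, with overlapping groups. None of the 3 differences passed: 0.51 (SE 0.23, limma adjusted p = 0.627) in cortex at 4 h, 0.36 (SE 0.22, limma adjusted p = 0.781) at 24 h and 0.17 (SE 0.22, limma adjusted p = 0.616) in hippocampus. These differences are partly set by the floor and understate those of the raw signal. X13044_g_at differed by −0.03, 0.13 and 0.04 in the same order, and was above the floor on at most 3 arrays of a group.

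Among the class I genes, B2m (rc_AI170268_at) was the steadiest, with SDs of 0.15 to 0.32 log2 units within groups. B2m signals in hippocampus were 7430, 8440 and 11700 ipsilaterally and 6530, 7960 and 8790 contralaterally. In cortex B2m read 7800, 9150 and 9830 ipsilaterally and 7530, 8990 and 10200 contralaterally at 24 h, and 5330, 7600 and 10200 ipsilaterally and 5430, 7700 and 9650 contralaterally at 4 h. Both sides of cortex were higher at 24 h, but the groups overlapped and the differences of 0.24 (SE 0.11, limma adjusted p = 0.122, ipsilateral) and 0.21 (SE 0.11, limma adjusted p = 0.158, contralateral) did not pass. The side difference of B2m was 0.03 in cortex at 24 h, with a 95% interval of −0.18 to 0.25, and 0.20 (SE 0.11, limma adjusted p = 0.189) in hippocampus.

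Tap1 (X57523_at) was lower on the ipsilateral side in all 3 pairs of groups, without passing in any. Tap1 signals were 848, 1110 and 1420 in ipsilateral and 1050, 1370 and 1710 in contralateral hippocampus. In cortex they were 742, 950 and 1250 ipsilaterally and 886, 1150 and 1520 contralaterally at 24 h, and 363, 875 and 1790 ipsilaterally and 648, 987 and 1710 contralaterally at 4 h. The groups overlapped, and the differences were −0.30 (SE 0.20, limma adjusted p = 0.314), −0.26 (SE 0.20, limma adjusted p = 0.844) and −0.20 (SE 0.21, limma adjusted p = 0.89). The second Tap1 probe set, X57523_g_at, went the other way in hippocampus: 229, 351 and 665 ipsilaterally and 100, 257 and 323 contralaterally, a difference of 0.57 (SE 0.23, limma adjusted p = 0.0833). It also differed by 0.48 (SE 0.24, limma adjusted p = 0.666) in cortex at 4 h. The pair correlated at r = 0.14 over 47 arrays, so no direction is given for Tap1.

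Psmb8 (D10729_s_at) had its highest level in ipsilateral cortex at 24 h. Its signals there were 483, 1190 and 1810, against 295, 640 and 973 in contralateral cortex at 24 h. In the other groups Psmb8 read 340, 605 and 875 in ipsilateral and 299, 633 and 859 in contralateral hippocampus, and 296, 696 and 1170 in ipsilateral and 274, 557 and 848 in contralateral cortex at 4 h. On the ipsilateral side at 24 h, 5 of 8 arrays, numbers 36 to 40, lay above the highest contralateral array and the other 3 overlapped with the contralateral range. The means were 10.05 ± 0.69 and 9.25 ± 0.53 log2 signal (SD, n = 8 each), a difference of 0.80 (SE 0.28, 1.74-fold, 95% interval 0.24 to 1.36) with an unadjusted p of 0.00577 that did not pass (limma adjusted p = 0.351). The adjusted p ranged between 0.176 and 0.697 on leaving out 1 of 16 arrays. Against ipsilateral cortex at 4 h, Psmb8 at 24 h differed by 0.77 (SE 0.29, 1.7-fold, limma adjusted p = 0.0524), also without passing, and passed when any single one of 6 arrays, of 15, was left out (lowest adjusted p 0.0144). The side difference at 24 h exceeded that at 4 h by 0.64 (SE 0.40, limma adjusted p = 0.932), so a change of the side difference with time is not shown.

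The ipsilateral arrays with high Psmb8 were largely those with high microglia genes. In cortex at 24 h all 12 microglia and macrophage genes tested were higher on the ipsilateral side, with a median difference of 0.62, where 3280 of 7503 probe sets were. Only 1 of the 12 passed, where 0.107% of all did. It was Spp1, which encodes osteopontin (2.59, SE 0.58, limma adjusted p = 0.0498). In limma 7 of the 12 were under an unadjusted p of 0.05, where 7.66% of all were. The mean log2 signal of the 12 genes was 9.23 to 10.76 ipsilaterally and 9.03 to 9.59 contralaterally. Arrays 37, 38, 39 and 40 had means between 10.49 and 10.76 and Psmb8 signals of 1810, 1508, 1675 and 1264. Array 36 had a Psmb8 signal of 1120 with a microglia mean of 9.40, inside the contralateral range. Arrays 33, 34 and 35 had microglia means of 9.33, 9.23 and 9.49, also inside that range, and Psmb8 signals of 640.9, 483.5 and 812.6. The high microglia means were thus all on the later-numbered arrays of this group. The labels do not say what the numbers stand for, and whether they mark a subgroup or a batch was not tested. No list marker is at 0; Csf1r was under the floor on too many arrays to be tested. Of T and B cell markers, 4 of the 7 tested (Cd3g, Cd4, Cd8a, Cd8b, Cd5, Lck and Cd79b) were higher with a median difference of 0.04, and Cd3d, Cd2 and Cd28 were too dim to be tested; no dendritic cell marker was tested. The part of microglia in the Psmb8 difference was not tested.

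**Figure D3:**
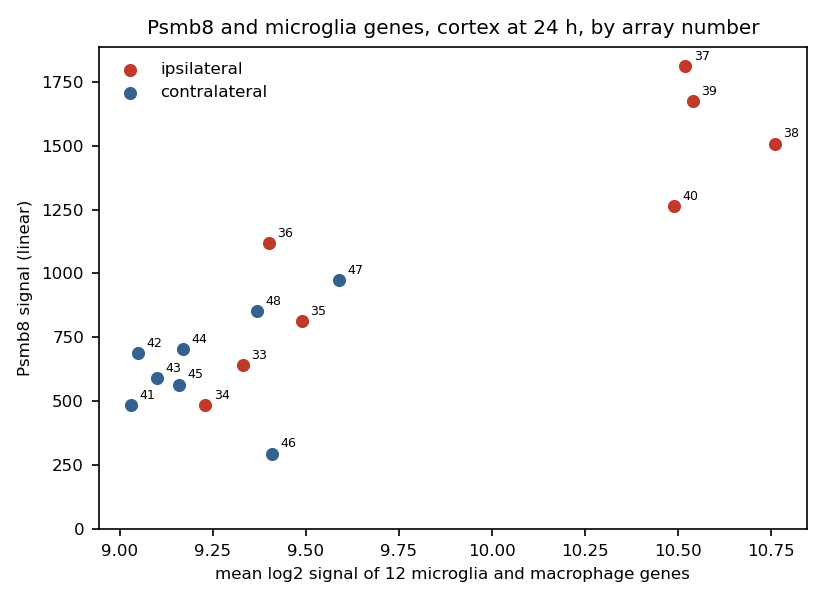
Psmb8 signal (vertical linear axis) against the mean log2 signal of 12 microglia and macrophage genes (horizontal axis) on 8 ipsilateral (red) and 8 contralateral (blue) arrays of cortex at 24 h, with array numbers. Arrays 37 to 40 lie apart at the upper right, with microglia means of 10.49 to 10.76 and Psmb8 from 1264 to 1810.

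Psmb9, the other immunoproteasome subunit, had leading signals (D10757_g_at) of 202, 402 and 800 in ipsilateral and 113, 330 and 470 in contralateral hippocampus. At 24 h Psmb9 in cortex gave 235, 358 and 545 ipsilaterally and 85.5, 307 and 459 contralaterally, and at 4 h it gave 83.1, 340 and 631 ipsilaterally and 82.4, 299 and 603 contralaterally. The ipsilateral median was higher in the 3 pairs, all overlapping, and the differences of 0.38 (SE 0.28), 0.33 (SE 0.28) and 0.05 (SE 0.29) did not pass. The second Psmb9 probe set, D10757_at, gave the remaining difference past the threshold. In contralateral cortex it read 175, 283 and 639 at 24 h and 30.5, 72.7 and 144 at 4 h, so that all 8 arrays at 24 h exceeded the highest at 4 h. On the floored scale the means were 8.21 ± 0.59 and 7.54 (SD, n = 8 each; all 8 arrays at 4 h at the floor), a difference of 0.67 (SE 0.23, limma adjusted p = 0.0331) that understates the change in raw signal. With the floor at the 10th percentile the difference was 1.89. Leaving out array 41, 43 or 48 ended the call (adjusted p up to 0.114). In ipsilateral cortex D10757_at read 133, 250 and 410 at 24 h and 60.8, 106 and 472 at 4 h. That difference was 0.19 (SE 0.24, limma adjusted p = 0.639). The ipsilateral and contralateral time differences differed by −0.48 (SE 0.34, limma adjusted p = 0.96), so a change confined to the contralateral side is not shown. D10757_g_at differed by −0.13 (SE 0.28, limma adjusted p = 0.796) between the times in contralateral cortex. The pair of probe sets correlated at r = 0.09 over 47 arrays, so no direction is given for Psmb9.

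**Figure D4:**
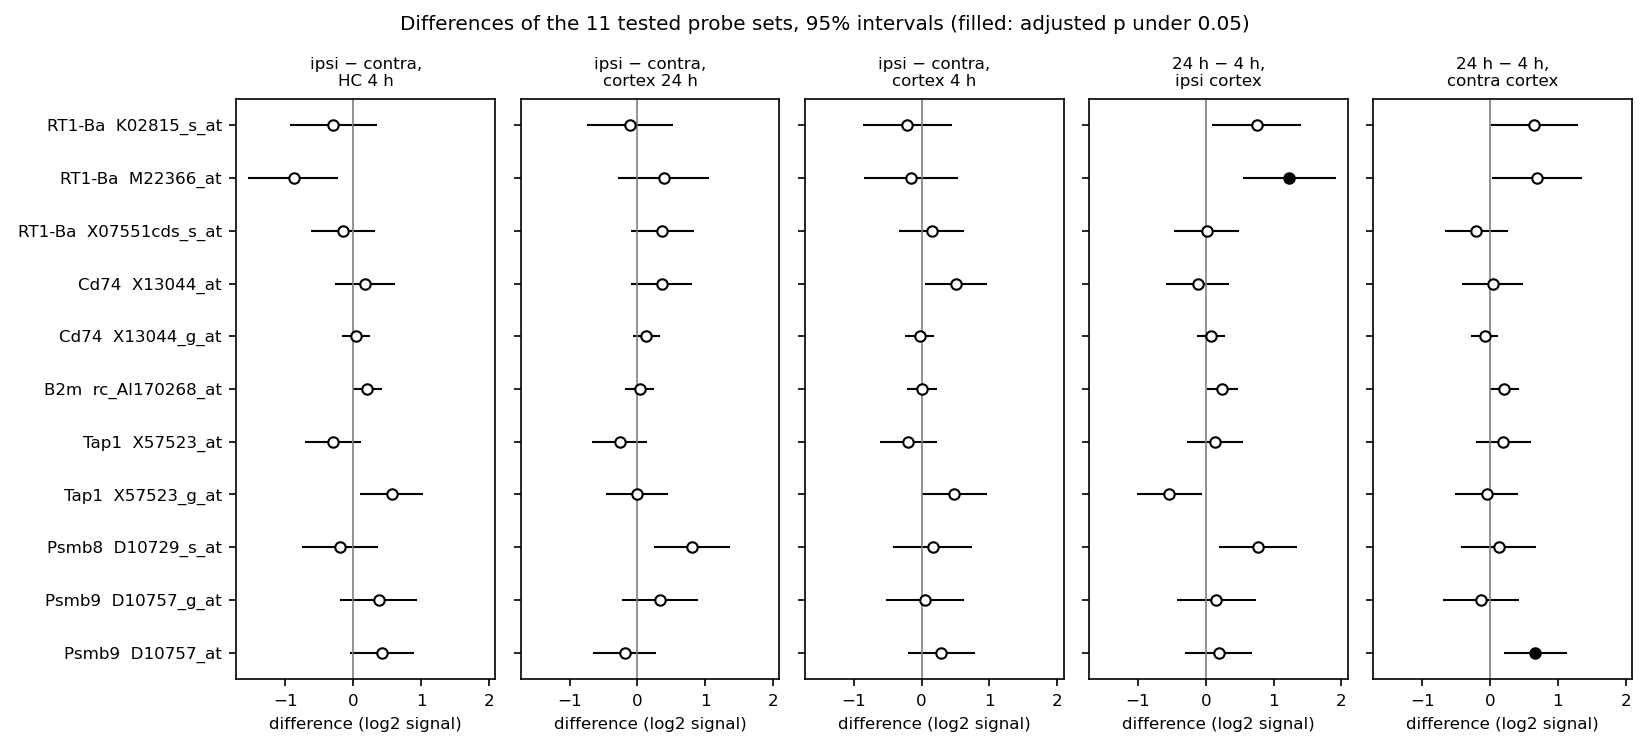
Differences in log2 signal (horizontal axis) of the 11 tested probe sets, with 95% intervals, for the 3 side comparisons and the 2 time comparisons; filled points passed an adjusted p of 0.05. RT1-Ba M22366_at (1.23, ipsilateral cortex) and Psmb9 D10757_at (0.67, contralateral cortex) passed between the times, and none of 11 passed between the sides.

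In each of the 9 comparisons, the share of the 11 probe sets past the adjusted threshold was no higher than the share of all probe sets. Between the sides, 0 of 11 probe sets passed in limma in cortex at 4 h, where 0% of 7503 passed, and 2 were under an unadjusted p of 0.05, where 7.44% of all were. In cortex at 24 h 0 passed, where 0.107% of all did, and 1 (Psmb8) was under an unadjusted p of 0.05, where 7.66% were. In hippocampus 0 passed in limma, where 16.1% of all did, and 2 were under an unadjusted p of 0.05, where 31.5% were. Between 24 h and 4 h, 1 of 11 passed on the ipsilateral side of cortex, where 19.3% of all did, and 1 of 11 on the contralateral side, where 21.5% did. Between hippocampus and cortex at 4 h, 1 of 11 passed on the contralateral side, where 33.7% did. On the ipsilateral side 0 passed in limma, where 27.5% did, and 0 were under an unadjusted p of 0.05, where 37.5% were. The change of the side difference with time passed for 0 of 11 (0% of all) and was under an unadjusted p of 0.05 for 0 in limma (5.61% of all). The difference between the hippocampal and cortical side differences passed for 0 of 11 (4.18% of all) and was under an unadjusted p of 0.05 for 0 in limma (21.1% of all). The median difference of the 11 was 0.04 in hippocampus, 0.13 in cortex at 24 h and 0.05 in cortex at 4 h between sides, beside −0.04, −0.02 and 0 for all 7503.

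By the leading probe sets, the order of the 6 groups differed from gene to gene. RT1-Ba and Tap1 were highest in contralateral hippocampus and lowest in ipsilateral cortex at 4 h, Cd74 was highest in ipsilateral cortex at 4 h and lowest in contralateral hippocampus, and Psmb9 was highest in ipsilateral and lowest in contralateral hippocampus. For these 4 genes no neighbouring groups differed by more than both of their SDs. Psmb8 in ipsilateral cortex at 24 h stood 0.73 above the next group, more than both SDs (0.69 and 0.46), and the means of its other 5 groups ran from 9.12 to 9.32. B2m in contralateral cortex at 24 h stood 0.19 above contralateral hippocampus, over both SDs (0.16 and 0.15), with no other such step. Other probe sets of a gene gave other orders. RT1-Ba M22366_at was highest in ipsilateral cortex at 24 h (9.61). Tap1 X57523_g_at was highest in ipsilateral hippocampus (8.51) and lowest in ipsilateral cortex at 24 h (7.73). Psmb9 D10757_at was lowest in contralateral cortex at 4 h (7.54, the floor).

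The genes also did not follow one another from array to array. Over 47 arrays, which share groups and scaling, the 15 pairs of leading probe sets had r between −0.25 and 0.41, with a median of 0.14 and 5 of 15 below 0. The highest was Psmb8 with Psmb9, both immunoproteasome subunits (0.41, and 0.43 after group means were subtracted). Tap1 and Psmb9, whose starts face away from each other across the shared promoter windows printed above, had r = 0.07, and RT1-Ba and Cd74, both of class II, had r = −0.19. The genes most like each of the 6 were from elsewhere on the array. For RT1-Ba these were Plod3 (r = 0.64), Atp2a2 (0.63) and Rcn1 (0.63). Cd74 was followed most closely by S100a10 (0.63), Lyz2, the lysozyme of macrophages (0.62), and Myl12a (0.58). The likest to B2m were the proteasome subunit Psma1 (0.75), Arl1 (0.71) and Hsp90b1 (0.71), and to Tap1 they were Cftr (0.76), Adra2a (0.76) and Avpr2 (0.75). Psmb8 was most like Hspb1, a small heat shock protein (0.66 and 0.61 by separate probe sets), and Fn1, fibronectin (0.61), and Psmb9 most like Cth (0.56), Rup2 (0.52) and Nucb1 (0.50). After subtraction of group means these values lay between 0.43 and 0.70.

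The other genes of the pathway were read from 4 lists: 13 genes of class I and peptide loading, 15 of class II and endosomal processing, 20 of the proteasome and its regulators, and 15 of the interferon response, each by its leading tested probe set. Between the sides of cortex, 0 of these 63 passed in limma at either time. At 24 h the counts under an unadjusted p of 0.05 were 0, 1, 0 and 2, where 7.66% of all probe sets were in limma. These 3 were RT1-DMb, a class II peptide editor subunit (0.39, SE 0.18), the interferon regulatory factor Irf8 (0.74, SE 0.28) and the antiviral GTPase Mx2 (0.62, SE 0.30). At 4 h the counts were 1, 0, 0 and 3, where 7.44% of all probe sets were under that p. The chemokine Cxcl10 was furthest (1.54, SE 0.43, limma adjusted p = 0.217). Cxcl10 signals at 4 h were 122, 1030 and 1350 ipsilaterally and 53.2, 130 and 427 contralaterally, with overlap. The remaining genes with the smallest p of their lists, none past the threshold, were RT1-CE12 (0.22, SE 0.12), Pdia3 (−0.12, SE 0.097), Ctss (−0.13, SE 0.065), Psmc3 (0.19, SE 0.10) and Psme1 (−0.24, SE 0.13) at 24 h. At 4 h they were RT1-A3 (0.26, SE 0.12), RT1-CE16 (0.36, SE 0.19), Ctsh (0.12, SE 0.11), RT1-DMa (0.13, SE 0.14), Psma7 (−0.11, SE 0.061), Psmc3 (0.17, SE 0.11) and Irf7 (−0.52, SE 0.18). For the change of the side difference with time, 5.61% of all probe sets were under an unadjusted p of 0.05. It passed for 0 of the 63 in limma, with 4 under that p. Those with the smallest p of their lists were Irf7 (0.73, SE 0.26), Mx2 (1.11, SE 0.43), RT1-CE16 (−0.54, SE 0.26), RT1-A3 (−0.20, SE 0.17), Psme1 (−0.35, SE 0.19), Psmb3 (0.20, SE 0.12), Ctss (−0.14, SE 0.093) and Ctsd (0.20, SE 0.15). Interferon genes were higher ipsilaterally for 13 of 15 at 24 h (median 0.16) and 7 of 15 at 4 h (median −0.01). Of all 7503 probe sets, 3280 and 3698 were.

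In hippocampus 11 of the 63 pathway genes passed between sides, 5 higher and 6 lower, where 16.1% of all probe sets passed. RT1-DOa, the alpha chain of the class II editor's inhibitor, was lower on the ipsilateral side. It read 1480, 1950 and 2730, against 3060, 4010 and 5260 contralaterally, a difference of −1.04 (SE 0.17, limma adjusted p = 0.000237) without overlap. Psme1, a proteasome activator subunit linked to class I peptides, read 6780, 7970 and 11200 ipsilaterally, against 8920, 13800 and 17500 contralaterally (−0.71, SE 0.13, limma adjusted p = 0.000573), with some overlap. The class I heavy chain gene RT1-CE16 (−0.59, SE 0.18), RT1-S3 (−0.47, SE 0.17), the Fc receptor Fcgrt (−0.33, SE 0.095) and the antiviral enzyme Oas1a (−0.61, SE 0.19) were also lower ipsilaterally. The chaperone Canx (0.49, SE 0.17), the kinase Jak1 (0.33, SE 0.11) and the proteasome subunits Psma1 (0.43, SE 0.11), Psmc2 (0.32, SE 0.094) and Psma2 (0.27, SE 0.06) were higher ipsilaterally. RT1 class I probe sets can match near-identical relatives, so the name RT1-CE16 is uncertain. All 7 T and B cell markers tested were lower on the ipsilateral side (median −0.42, 1 past the threshold), with list means of 8.32 to 8.87 ipsilaterally and 8.61 to 9.30 contralaterally. With each array's 10th percentile of signal as a covariate, 0 of the 63 genes and 5 of 7503 probe sets passed, so these calls end with that setting.

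Between the times, proteasome genes made up most of the pathway genes that passed. Of the 20 proteasome genes 1 rose and 8 fell at 24 h in ipsilateral cortex, where 19.3% of all probe sets passed, and 2 rose and 8 fell in contralateral cortex, where 21.5% did. Over all 63 pathway genes, 14 passed on each side. Psmb4, a structural beta subunit, fell to 9140, 10200 and 18000 at 24 h in ipsilateral cortex, against 21200, 25500 and 27800 at 4 h (−1.06, SE 0.14, limma adjusted p = 4.6e-07), and differed by −1.11 (SE 0.14, limma adjusted p = 1.11e-07) contralaterally, in both cases without overlap. Psmc3, Psmd4 and Psmb1 fell on both sides (−0.38 to −0.63), while Psma1 rose ipsilaterally (0.46, SE 0.11) and Psme1 contralaterally (0.52, SE 0.13). Of the class I list, RT1-M3-1 rose on both sides (0.42, SE 0.089, and 0.35, SE 0.086) and the chaperone Calr ipsilaterally (0.24, SE 0.072). Of the class II list the protease genes Ctsb (0.26, SE 0.078, ipsilateral) and Ctsh (0.31, SE 0.10, contralateral) rose and Ctsd fell (−0.49, SE 0.10, contralateral). Of the interferon list, Jak1 rose on both sides (0.61, SE 0.12, and 0.31, SE 0.11) and Cxcl10 fell ipsilaterally (−1.40, SE 0.43, limma adjusted p = 0.0159). No hybridisation batch is given in the sources used here, so batch and time point cannot be told apart.

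Between contralateral hippocampus and contralateral cortex at 4 h, 5 of 13 class I genes were higher in hippocampus and 0 lower, a share close to the 33.7% of all probe sets that passed. They were RT1-N3 (0.70, SE 0.22), RT1-CE16 (0.69, SE 0.17), RT1-M3-1 (0.62, SE 0.084), Fcgrt (0.39, SE 0.092) and Calr (0.18, SE 0.068). RT1-M3-1 read 2300, 2500 and 2860 in contralateral hippocampus and 1490, 1700 and 1890 in contralateral cortex, without overlap. Of 15 class II list genes 1 was higher, RT1-DOa (0.74, SE 0.16), and 2 were lower, the protease genes Ctsd (−0.41, SE 0.10) and Ctsl (−0.35, SE 0.054). Of the proteasome list 9 of 20 were lower, among them Psmb1 (−0.52, SE 0.063), Psma7 (−0.45, SE 0.057), Psmc4 (−0.45, SE 0.068) and Psmc3 (−0.41, SE 0.099), and 1 was higher, Psme1 (0.70, SE 0.13). Of the interferon list Mx1 (0.70, SE 0.18) and Irf1 (0.49, SE 0.20) were higher and Mx2 was lower (−1.17, SE 0.29). The T and B cell markers were higher for 7 of 7 (median 0.42, 1 past the threshold), and endothelial and meningeal markers for 8 of 9 (median 0.32, 2 past it); their part in these differences was not tested.

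On the ipsilateral side 14 of the 63 pathway genes passed between hippocampus and cortex, where 27.5% of all probe sets did. Of the class I list 1 was higher in hippocampus, RT1-M3-1 (0.59, SE 0.092). Of the class II list 2 were lower, RT1-Da, an alpha chain of another class II molecule (−0.59, SE 0.21), and Ctsl (−0.19, SE 0.059). Of the proteasome list 2 were higher, with Psma1 the further (0.49, SE 0.11), and 7 were lower, among them Psmc3 (−0.57, SE 0.11), Psmc4 (−0.32, SE 0.075), Psmb1 (−0.31, SE 0.07) and Psmd4 (−0.31, SE 0.099). Of the interferon list Jak1 (0.71, SE 0.12) and Mx1 (0.60, SE 0.20) were higher.

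The side differences of 4 of the 63 pathway genes differed between the regions, where 4.18% of all probe sets did. The side difference of RT1-DOa in hippocampus lay 1.18 log2 units below that in cortex at 4 h (SE 0.24, limma adjusted p = 0.00733), and those of RT1-CE16 (−0.95, SE 0.26, limma adjusted p = 0.0292) and Psme1 (−0.82, SE 0.19, limma adjusted p = 0.012) were also lower in hippocampus. That of Psma2 was higher (0.29, SE 0.086, limma adjusted p = 0.0442). The interferon genes nearest to passing were Jak1 (0.47, SE 0.16) and Mx2 (1.09, SE 0.43). With the 10th percentile as a covariate 0 of the 63 differed between the regions in this way.

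**Figure D5:**
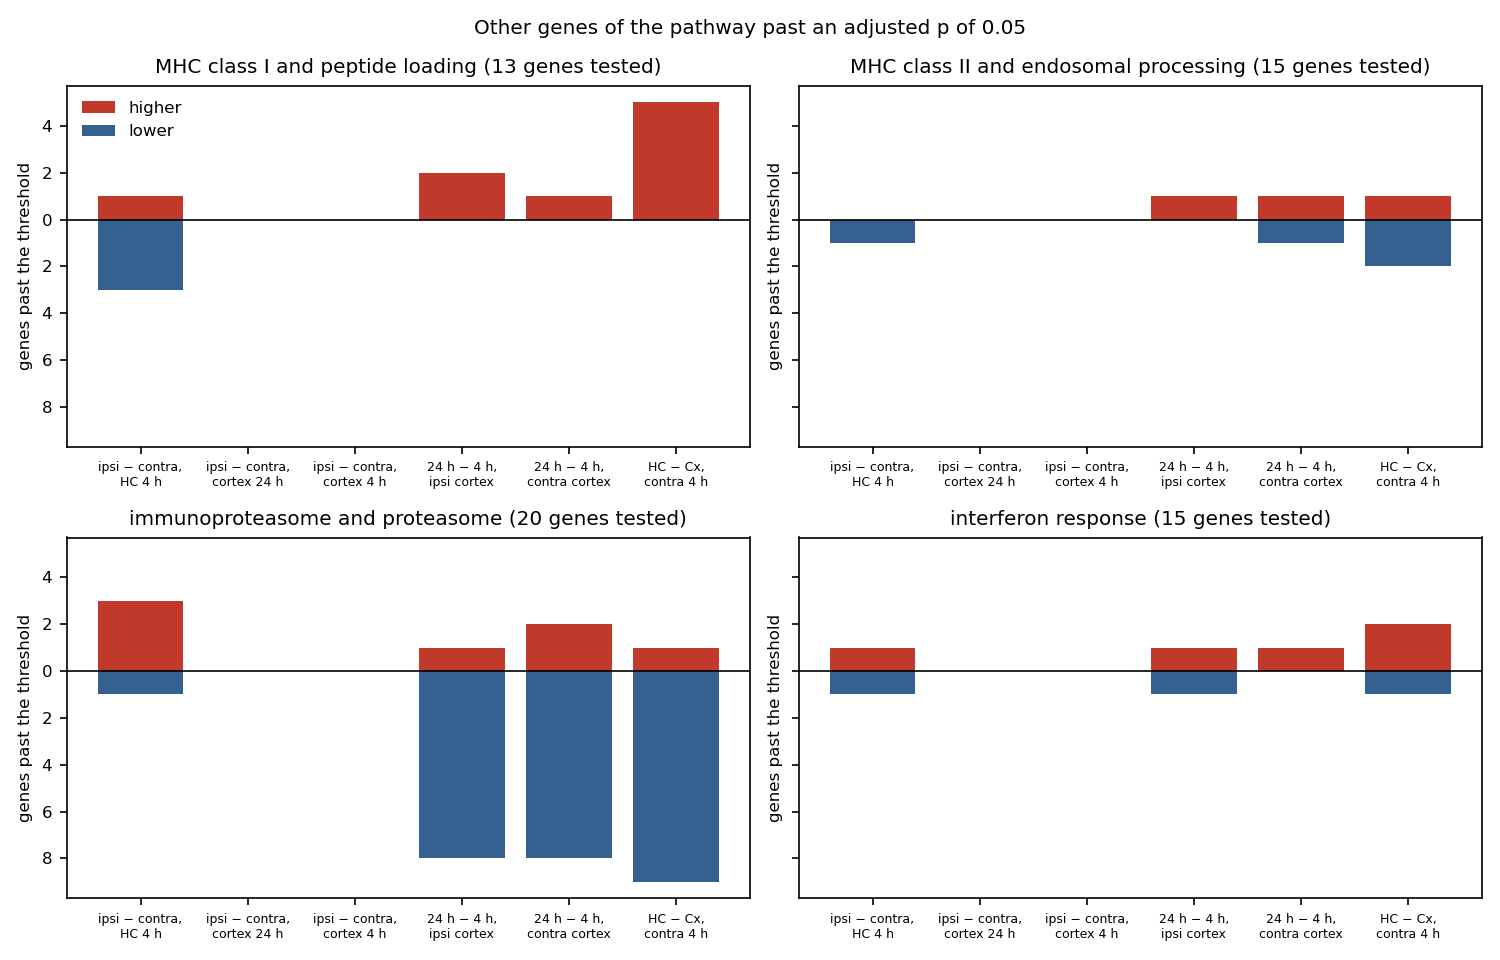
Number of genes of 4 pathway lists past an adjusted p of 0.05 in 6 comparisons (horizontal axis; HC is hippocampus, Cx cortex), with higher counts above 0 in red and lower ones below 0 in blue. Of the 20 proteasome genes 8 were lower at 24 h on each side of cortex, 5 of 13 class I genes were higher in contralateral hippocampus than cortex, and 0 of 63 passed between the sides of cortex.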

How the data were processed

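The deposited intensity (signal) is linear, 1 value per probe set on each of 47 arrays with Trizol-extracted RNA, per the labels. The sources used here name no summary algorithm. The 2%-trimmed means of the arrays lay between 2503 and 2504, so no further scaling was applied. Signals were floored at 185.8 and log2 was taken; 59 control probe sets were left out. Symbols came from the platform annotation, updated through gene identifiers (6994 of 7018 probe sets with 1 symbol matched). Promoter windows came from RefSeq (GRCr8) and matched all 6 genes by symbol.

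A single linear model of 6 group means was fitted over all 47 arrays with limma 3.58.1 (R 4.3.3, with the package data.table, version 1.17.8) and empirical Bayes with an intensity trend, with 9 comparisons, each two-sided. The 6 genes were named by every probe set, led by the one with the highest mean. Of each pathway list up to 5 genes past the threshold with the largest change were named, and otherwise the 2 with the smallest p. Likeness was Pearson's r of log2 values over 47 arrays, the top 3 probe sets per gene, with those of the 6 genes left out of the search. The genes and lists were chosen with earlier results of these data known. Array 23 was kept as labelled, contralateral hippocampus, although its number falls among the ipsilateral ones. The labels number each array once, so no block was used. The fit was tested on simulated data. Alternatives were quantile normalization, a floor at the 10th percentile, no filter, only the compared arrays, array weights, a covariate (each array's 10th percentile), and leaving out each array. The number of arrays limits the precision.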

Additional observations from a re-analysis of the deposited data

Results flagged for a closer look

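Of 64 sets of array values (a probe set in a group), 13 held 1 array far from the others by Dixon's ratio, the gap to the nearest value over the range in log2 signal. Without ties, chance gives about 5%, or 1 in 20. Values at the floor are tied here, so 13 of 64 cannot be set against that share. Psmb8 was lowest on array 29 in contralateral hippocampus at 4 h (299, next 607, ratio 0.672). Psmb9 D10757_at was highest on array 25 in the same group (411, next 245, ratio 0.654). RT1-Ba M22366_at was lowest on array 45 in contralateral cortex at 24 h (274, next 561, ratio 0.595), while RT1-Ba X07551cds_s_at was highest on that array (322, next 232, ratio 0.594). X07551cds_s_at also stood out on array 5 in ipsilateral cortex at 4 h (674, next 293, ratio 0.645) and on array 22 in ipsilateral hippocampus at 4 h (372, next 241, ratio 0.626).

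The other 7 were Cd74 values near the floor. X13044_at was high on array 10 in contralateral cortex at 4 h (382, next 216, ratio 0.789). On array 26 it was the sole value above the floor in contralateral hippocampus at 4 h (346, next 151), so the floor fixes its ratio of 1. X13044_g_at was the sole value above the floor on array 43 in contralateral cortex at 24 h (196), array 7 in ipsilateral cortex at 4 h (254), array 14 in contralateral cortex at 4 h (313) and array 22 in ipsilateral hippocampus at 4 h (222), each with a ratio of 1, which the floor fixes. It was also high on array 38 in ipsilateral cortex at 24 h (319, next 229, ratio 0.61).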

How the results depend on the processing

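The counts of the 11 probe sets past the threshold moved as follows. In the hippocampal side comparison (0 in the main setting) quantile normalization gave 1 (Tap1 X57523_g_at) and array weights 2 (with RT1-Ba M22366_at), and leaving out 1 array gave 0 to 1 (RT1-Ba M22366_at without array 22, 24 or 29). Between times in ipsilateral cortex (1) array weights and the 10th percentile covariate each gave 3, adding Psmb8 and RT1-Ba K02815_s_at, and leaving out 1 array gave 1 to 3. In contralateral cortex (1) the covariate gave 3, adding both brighter RT1-Ba probe sets, and leaving out 1 array gave 0 to 2; it was 0 without array 41, 43 or 48 and 2 without array 13. Between regions, ipsilaterally (0) the covariate gave 2 (RT1-Ba K02815_s_at and Tap1 X57523_at) and leaving out 1 array 0 to 1 (B2m without array 8); contralaterally (1) the floor at the 10th percentile gave 2, array weights 2, and leaving out 1 array 1 to 3. Both cortical side comparisons and both interactions stayed at 0 in the alternatives run. The cause of these moves was not tested.

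Of 456 alternative values of single probe sets (57 results), 413 kept direction and side of the threshold, 14 newly passed, 1 no longer passed and 28 turned sign, none of the 28 with an adjusted p under 0.05. Of the leave-one-out fits, only those with the lowest and the highest difference of each result are among the 456. Calls gained or lost on leaving out other arrays are therefore not counted there. With the covariate the turned differences were, between sides of hippocampus, RT1-Ba 0.26, Tap1 0.06 and Psmb8 0.05; for Psmb9 between times contralaterally 0.01; for side by time B2m −0.01 and Tap1 0.01; for side by region RT1-Ba 0.48 and Tap1 0.27. Quantile normalization turned Psmb8 between contralateral regions (−0.06) and side by region for RT1-Ba and Tap1 (0.03 each), the lower floor Psmb9 between sides of cortex at 4 h (−0.12), and array weights Cd74 between times contralaterally (−0.04). Leaving out 1 array turned, for cortex sides at 4 h, RT1-Ba (−0.49 to 0.07), Tap1 (−0.37 to 0.01) and Psmb9 (−0.11 to 0.19); between times, Cd74 (−0.32 to 0.03) and Tap1 (−0.08 to 0.31) ipsilaterally and Cd74 (−0.06 to 0.16) and Psmb8 (−0.02 to 0.28) contralaterally. It also turned, between regions, Psmb9 (−0.02 to 0.32) ipsilaterally and Cd74 (−0.16 to 0.07) and B2m (−0.04 to 0.08) contralaterally; for side by time, RT1-Ba (−0.18 to 0.38), B2m (−0.05 to 0.10) and Tap1 (−0.27 to 0.11); and for side by region, RT1-Ba (−0.36 to 0.19) and Tap1 (−0.31 to 0.07).

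Cd74, Psmb9 and the dimmer probe sets of Tap1 and RT1-Ba lie near the floor on many arrays, where signal over background limits what can be seen. Probe sets of 1 gene disagreed, so a call of 1 probe set is not a call of the gene.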

Other observations

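Marker genes of the cells that could carry these transcripts moved in their own ways. In ipsilateral cortex, 11 of 12 microglia and macrophage genes were higher at 24 h than at 4 h (median difference 0.41), and 3 passed, near the 19.3% of all probe sets that did. In contralateral cortex 5 of 12 were higher (median −0.04), 0 rose and 1 fell, where 21.5% of all probe sets passed. Blood and neutrophil markers were higher on the ipsilateral side of cortex for 4 of 5 genes at 4 h (median 0.50). At 24 h 3 of 5 were higher (median 0.07). In limma 0 passed at either time, where 0% of all probe sets passed at 4 h and 0.107% at 24 h. At 4 h 4 were under an unadjusted p of 0.05 in limma, where 7.44% of all probe sets were. At 24 h 0 were, where 7.66% of all were. Among these markers S100a8 and S100a9 were dim, above the floor on only 14 and 18 arrays over all groups. The mean of the 6 leading probe sets of RT1-Ba, Cd74, B2m, Tap1, Psmb8 and Psmb9 was 9.56 to 10.26 log2 signal in ipsilateral and 9.56 to 9.95 in contralateral cortex at 24 h. Arrays 38 and 39 shared the highest value, 10.26, and array 38 had the highest microglia mean.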
